A study of Mus musculus with 32 samples.

Results

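The 9 genes described here encode transcription factors used as markers of stromal identity in the developing mouse kidney: Foxd1, Tcf21, Meis1, Meis2, Meis3, Tshz2, Tshz3, Tbx18 and Nr2f1. They were listed by name and not by a cut on a measured value, but with earlier results of these data known. Counts of members set beside the shares of all genes are therefore descriptions, not independent evidence. Each member was found by its Ensembl ID in all 4 gene count tables, among 55806 genes present in any of them. The tables hold RNA-seq of 32 libraries from mouse embryonic kidney, in which the tumor mutations T1 (an insertion) and T3 (a small deletion) of ENL, a chromatin reader encoded by Mllt1, were compared with wild-type ENL. Mutant embryos were heterozygous: a conditional knock-in allele, made on C57BL/6J, was switched on by a Cre recombinase in the nephron lineage or in the stromal lineage. Nephron-lineage embryos carried Six2-TGC, a transgene in which the Six2 promoter drives an EGFP-Cre fusion, and were Six2-TGCtg/+;Enl+/+ (ENL WT), Six2-TGCtg/+;EnlT1/+ or Six2-TGCtg/+;EnlT3/+. Stromal-lineage embryos carried the knock-in Foxd1GC and were Foxd1GC/+;Enl+/+ (ENL WT) or Foxd1GC/+;EnlT1/+. Because Foxd1GC puts eGFP-Cre in place of Foxd1 function on its allele, every Foxd1-lineage library, controls included, came from embryos with 1 functional Foxd1 allele, and reads from the remaining Foxd1 sequence of the GC allele cannot be told apart from those of the wild-type allele. Whole kidneys at E18.5 gave 2 libraries for each of the 3 Six2 genotypes and 3 for each Foxd1 genotype. Cells positive for the LSL-tdT reporter (tdT+), which marks cells with past Cre activity and their descendants, were sorted from Six2 kidneys at E14.5 and E18.5, with 3 ENL WT and 3 ENL T1 libraries at each stage, and from Foxd1 kidneys at E18.5, with 4 of each. The labels do not say which libraries came from separate embryos, so p-values measure the spread between libraries, which may be in part technical.

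The renal stroma forms the interstitium, capsule, pericytes and mesangium, and signals to nephron progenitors and the ureteric tree. Foxd1, a forkhead factor, marks its cortical progenitors and is also made in nascent podocytes. Tcf21 is a basic helix-loop-helix factor of stroma and podocytes. Meis1, Meis2 and Meis3 are TALE homeodomain proteins that bind DNA with partner homeodomain proteins. Tshz2 and Tshz3 are teashirt zinc finger proteins, of which Tshz3 is known for its role in ureteric smooth muscle. Tbx18 is a T-box factor of ureteral mesenchyme and of stroma at the kidney surface, and Nr2f1 (COUP-TFI) is an orphan nuclear receptor of many mesenchymal tissues.

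In sorted Six2-lineage cells, 3 members rose with ENL T1 at both stages (Meis1, Tshz3 and Tbx18) and 1 fell at both (Foxd1). Their promoters are shown because each of these 4 was called in the same direction at both stages. Each runs 5′ to 3′ on the gene's strand from 250 bases before the transcript start to 30 after it, as RefSeq gives it on GRCm38.p6, and capitals mark TGACAG, a sequence bound by TALE homeodomain proteins.
Meis1 (chr11:19018940-19019219, minus strand): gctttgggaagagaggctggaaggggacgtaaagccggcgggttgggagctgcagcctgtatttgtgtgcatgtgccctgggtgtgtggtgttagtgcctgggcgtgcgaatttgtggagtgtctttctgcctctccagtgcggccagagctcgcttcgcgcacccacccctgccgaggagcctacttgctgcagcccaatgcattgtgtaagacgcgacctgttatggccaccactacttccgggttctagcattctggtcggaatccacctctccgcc
Tshz3 (chr7:36697868-36698147, plus strand): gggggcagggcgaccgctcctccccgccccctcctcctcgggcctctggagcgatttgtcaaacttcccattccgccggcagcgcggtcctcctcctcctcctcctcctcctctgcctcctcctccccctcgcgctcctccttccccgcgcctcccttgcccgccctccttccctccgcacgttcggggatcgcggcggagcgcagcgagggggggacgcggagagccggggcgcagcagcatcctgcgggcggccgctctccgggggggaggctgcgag
Tbx18 (chr9:87731231-87731510, minus strand): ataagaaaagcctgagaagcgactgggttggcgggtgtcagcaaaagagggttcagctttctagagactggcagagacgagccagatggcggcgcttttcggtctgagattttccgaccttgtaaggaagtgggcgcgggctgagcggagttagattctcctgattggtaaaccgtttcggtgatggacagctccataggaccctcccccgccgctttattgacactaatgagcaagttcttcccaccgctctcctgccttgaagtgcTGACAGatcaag
Foxd1 (chr13:98353995-98354274, plus strand): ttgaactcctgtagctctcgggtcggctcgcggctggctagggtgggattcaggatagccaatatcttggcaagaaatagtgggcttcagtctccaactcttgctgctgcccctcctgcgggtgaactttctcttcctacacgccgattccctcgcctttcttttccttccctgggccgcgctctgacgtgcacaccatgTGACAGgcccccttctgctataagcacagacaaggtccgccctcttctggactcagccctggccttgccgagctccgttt
All 9 members had a RefSeq promoter entry of 300 bases, ending 50 bases after the start, and Nr2f1 had a second, which makes 10 entries. Searched on both strands, TGACAG was present in 2 of the 10, those of Foxd1 (first base 50 bases before the start) and Tbx18 (19 bases after it), against 19.2% of 32851 mouse promoters of the same length. The forkhead sequence TGTTTAC was present in 1 entry, the second of Nr2f1, against 3.65% of all promoters. The T-box sequence AGGTGTGA (1.28% of all), the E-box CAGCTG (16.3%) and the nuclear receptor sequence AGGTCA (16.3%) were present in 0 of the 10. TGACAG was thus present in a gene that rose (Tbx18) and in the gene that fell (Foxd1), and 4 promoters are too few to compare by it. GC content ranged from 51.7% for Tbx18 through 57.7% for Foxd1 and 58.3% for Meis1 to 76% for Tshz3, which held 33 CpG dinucleotides, against medians of 52.7% and 7 over all promoters.

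On GRCm38 (mm10), each member lies on an autosome: Foxd1 (ENSMUSG00000078302) at chr13:98354242-98359305, Tcf21 (ENSMUSG00000045680) at chr10:22817281-22820174, Meis1 (ENSMUSG00000020160) at chr11:18879817-19018985, Meis2 (ENSMUSG00000027210) at chr2:115863064-116065839, Meis3 (ENSMUSG00000041420) at chr7:16175090-16186504, Tshz2 (ENSMUSG00000047907) at chr2:169633013-170071816, Tshz3 (ENSMUSG00000021217) at chr7:36698118-36773553, Tbx18 (ENSMUSG00000032419) at chr9:87702800-87731260 and Nr2f1 (ENSMUSG00000069171) at chr13:78188973-78199757. Exons of 4 of them overlap those of other annotated genes: 67.5% of the exon length of Tshz2 (A630075F10Rik and Gm26883), 20.6% of Tbx18 (D030062O11Rik), 18.3% of Meis1 (Gm16140 and Gm37818) and 2.42% of Nr2f1 (A830082K12Rik). Reads were counted without strand, so reads of those stretches cannot be told apart between the overlapping genes, and the values of Tshz2 above all are uncertain for this reason.

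Total counts per library ranged from 106005614 to 157266455 in Six2 whole kidneys, from 67137194 to 79343015 in Foxd1 whole kidneys, from 76510702 to 137888792 in sorted Six2 cells and from 2557443 to 3508381 in sorted Foxd1 cells. In the shallower sorted Foxd1 libraries 3 counts correspond to 0.848 to 1.20 CPM (counts per 1000000 counts, the unit of all levels below), against at most 0.0443 CPM in the other libraries. CPM were scaled within each table, so levels from different tables are set side by side only. Mllt1, the targeted gene, was measured at 27.4 to 232 CPM over all libraries, and the counts do not separate its mutant allele. The labels of the sorted cells were met by their markers: Six2 was at 200.03 to 926 CPM in sorted Six2 ENL WT libraries and at 10.4 to 17.5 CPM in sorted Foxd1 ones, while the collagen gene Col1a1 was at 77.7 to 189 CPM in the former and at 2386 to 3529 CPM in the latter. Podocyte marker genes were also present in sorted Foxd1 cells, with Podxl at 196 to 354 CPM in the ENL WT libraries.

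Which of the 9 genes are enriched in normal stroma was asked first, by comparing sorted Foxd1 with sorted Six2 ENL WT cells at E18.5. Of the 9, 6 were higher in Foxd1-lineage cells and 0 lower, with adjusted p-values below 0.01 and more than 2-fold differences, where 27.2% of 14869 genes tested were called higher and 28.2% lower (edgeR quasi-likelihood test, Benjamini-Hochberg adjustment, as for all adjusted p-values below). The difference was largest for Tbx18, at 5.30 on the log2 scale (SE 0.34, adjusted p = 4.12e-12), followed by Meis1 at 4.42 (SE 0.11, adjusted p = 2.52e-19), Tcf21 at 4.41 (SE 0.08, adjusted p = 8.16e-21), Tshz3 at 3.36 (SE 0.11, adjusted p = 5.47e-17) and Tshz2 at 3.06 (SE 0.09, adjusted p = 8.04e-18). Foxd1 itself differed least among the 6, at 1.05 (SE 0.11, adjusted p = 1.08e-08), and it fell under the fold threshold with library-size scaling (0.95), without a low-count filter (0.71), with a 1 CPM filter (0.997), and without ENL WT library 3 of the sorted Six2 cells (0.95) or library 4 of the sorted Foxd1 cells (0.995). Meis3 (0.81, adjusted p = 0.000162), Nr2f1 (0.75, adjusted p = 7.25e-08) and Meis2 (0.23, adjusted p = 0.0183, but -0.10 without a low-count filter) were also higher but stayed under a 2-fold difference. By these limits the label stromal held for Tcf21, Meis1, Tshz3 and Tbx18 in these cells, and for Foxd1 not in every setting given above. It did not hold for Meis2, Meis3 and Nr2f1, which nephron-lineage cells expressed at within 2-fold of the stromal level. Tshz2 passed too. Whole ENL WT kidneys held it at 12.8 to 14.4 CPM (Foxd1) and 15.7 to 15.8 CPM (Six2), below every sorted ENL WT library. These tables differ in kit and scaling, and with its exon overlap the lineage difference of Tshz2 remains uncertain. Of 20 cortical and medullary stroma markers, 16 were higher in the Foxd1-lineage cells and 2 lower. Lineage, Cre line, read length, depth and any difference between sequencing runs, which the labels do not name, cannot be told apart in this comparison. For Foxd1 itself the Foxd1GC allele, carried only by the Foxd1-lineage embryos, cannot be told apart from lineage either.

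Between genes, levels were compared per exon length, as FPKM, the CPM divided by exon length in kilobases. In sorted Foxd1 ENL WT cells the order of mean FPKM was Tcf21 at 483, Meis1 at 28.5, Tshz2 at 18.7, Meis2 at 17.5, Foxd1 at 13.3, Nr2f1 at 9.47, Tshz3 at 7.27, Meis3 at 4.19 and Tbx18 at 1.88, with overlapping libraries only between Tshz2 and Meis2 among neighbours. Tcf21 was thus by far the most abundant of the 9 in stroma and Tbx18 the least. In sorted Six2 ENL WT cells at E14.5 Tcf21 (39.6 FPKM) and Foxd1 (28.4 FPKM) led, followed by Meis2 (16.9), Meis3 (11.3), Meis1 (6.01), Nr2f1 (4.11) and Tshz2 (4.10), with Tbx18 (0.258) and Tshz3 (0.205) last. Here Nr2f1 and Tshz2 overlapped, as did Tbx18 and Tshz3. At E18.5 the nephron-lineage order was Tcf21 (26.4), Meis2 (17.3), Foxd1 (7.48), Nr2f1 (6.54), Meis3 (2.77), Tshz2 (2.60), Meis1 (1.55), Tshz3 (0.821) and Tbx18 (0.0537), with overlap between Foxd1 and Nr2f1 and between Meis3 and Tshz2. Tcf21 was thus the most abundant member in the Six2 lineage as well. Foxd1 was among the 3 highest there and behind 4 other members in stroma, where 1 of its alleles was the GC knock-in.

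**Figure D1:**
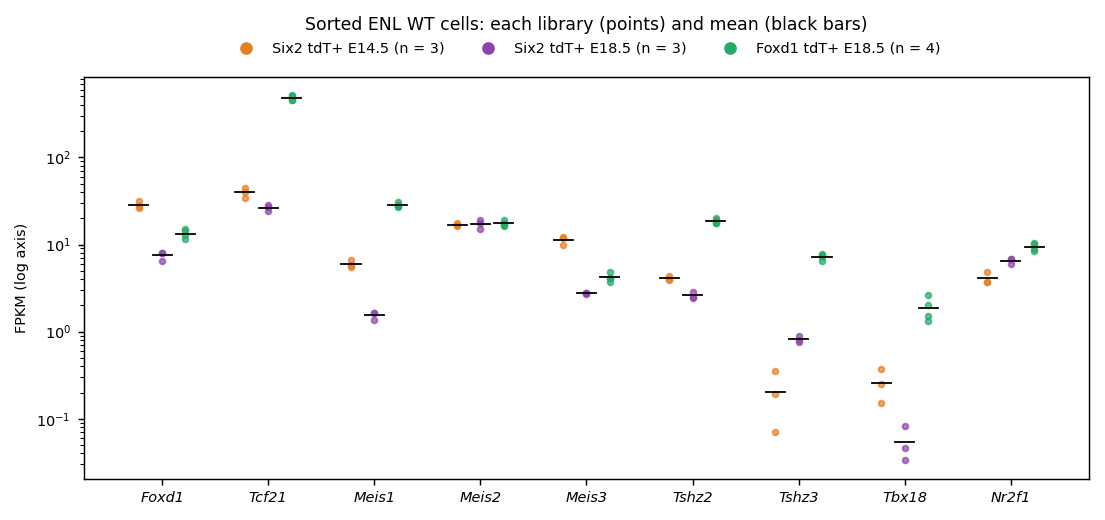
Levels of the 9 genes in sorted ENL WT cells, as FPKM on a log axis, for Six2-lineage cells at E14.5 (n = 3) and E18.5 (n = 3) and Foxd1-lineage cells at E18.5 (n = 4), 1 point per library. Tcf21 is highest in each of the 3 groups, and Tbx18 lies at 0.0537 FPKM on average in Six2-lineage cells at E18.5 against 1.88 in Foxd1-lineage cells.

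Normal development of the nephron lineage was examined next, between E14.5 and E18.5 in ENL WT sorted Six2 cells. Of the 9 genes 4 were lower and 1 higher at E18.5 at an adjusted p under 0.01 and over 2-fold, where 20.6% of 25222 genes were called lower and 24.8% higher. Foxd1 went from 135, 158 and 139 CPM at E14.5 to 40.5, 40.1 and 33.0 CPM at E18.5, a log2 change of -1.95 (SE 0.14, adjusted p = 1.21e-08). Meis1 fell from 70.1, 61.8 and 57.9 to 17.5, 14.4 and 17.1 CPM (log2 change -1.97, SE 0.10, adjusted p = 1.71e-10), and Meis3 from 38.1, 38.9 and 31.0 to 8.77, 8.67 and 8.92 CPM (log2 change -2.05, SE 0.11, adjusted p = 4.48e-10). Tbx18 fell from 1.18, 0.723 and 1.75 to 0.386, 0.218 and 0.157 CPM (log2 change -2.27, SE 0.43, adjusted p = 0.00026). In each of these 4 genes the stages did not overlap. Tshz3 was the exception in direction, rising from 1.04, 0.383 and 1.93 CPM to 4.39, 4.91 and 4.14 CPM (log2 change 1.99, SE 0.37, adjusted p = 0.000211), also without overlap. Tcf21 (-0.60), Tshz2 (-0.68) and Nr2f1 (0.65) differed at an adjusted p under 0.01 by less than 2-fold, and Meis2 was at 184 to 228 CPM over both stages (log2 difference 0.02, 95% interval -0.15 to 0.18). Cells were released with trypsin at E14.5 and with collagenase at E18.5, so stage and dissociation cannot be told apart. Podocyte markers rose over the same interval in 8 of 8 genes and nephron progenitor markers fell in 5 of 8.

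The main question, how these genes differ with an ENL mutation, was asked in 6 comparisons with ENL WT, with calls made below an adjusted p of 0.05 and beyond 1.5-fold. In sorted Six2 cells 3 members rose and 1 fell at E14.5, against 4.11% and 2.28% of 22387 genes, and 3 rose and 2 fell at E18.5, against 6.14% and 5.54% of 22685 genes. In sorted Foxd1 cells 1 rose and 1 fell, against 3.63% and 2.18% of 12717 genes. In Foxd1 whole kidneys 2 rose and 0 fell, against 2.65% and 7.53% of 20145 genes. In Six2 whole kidneys 0 were called with T1, against 2.88% higher and 4.88% lower of 23931 genes, and 1 rose with T3, against 4.34% and 5.28%. The median log2 change of the 9 genes was 0.10 at E14.5, 0.30 at E18.5, 0.17 in sorted Foxd1 cells, 0.18 in Foxd1 whole kidneys, 0.27 in Six2 whole kidneys with T1 and 0.41 with T3, and the median over all genes tested lay within 0.02 of 0 in each. Within sorted cells the members did not move as a group, as each comparison held genes called in both directions. In Six2 whole kidneys 8 of the 9 log2 differences lay above 0 with T1 and 8 of 9 with T3, though few were called. In Foxd1 whole kidneys 6 lay above 0 and 3 below. The T1 and T3 comparisons of Six2 whole kidneys share their 2 ENL WT libraries. In bulk samples such as these, fewer cells of a type and less RNA per cell cannot be told apart.

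**Figure D2:**
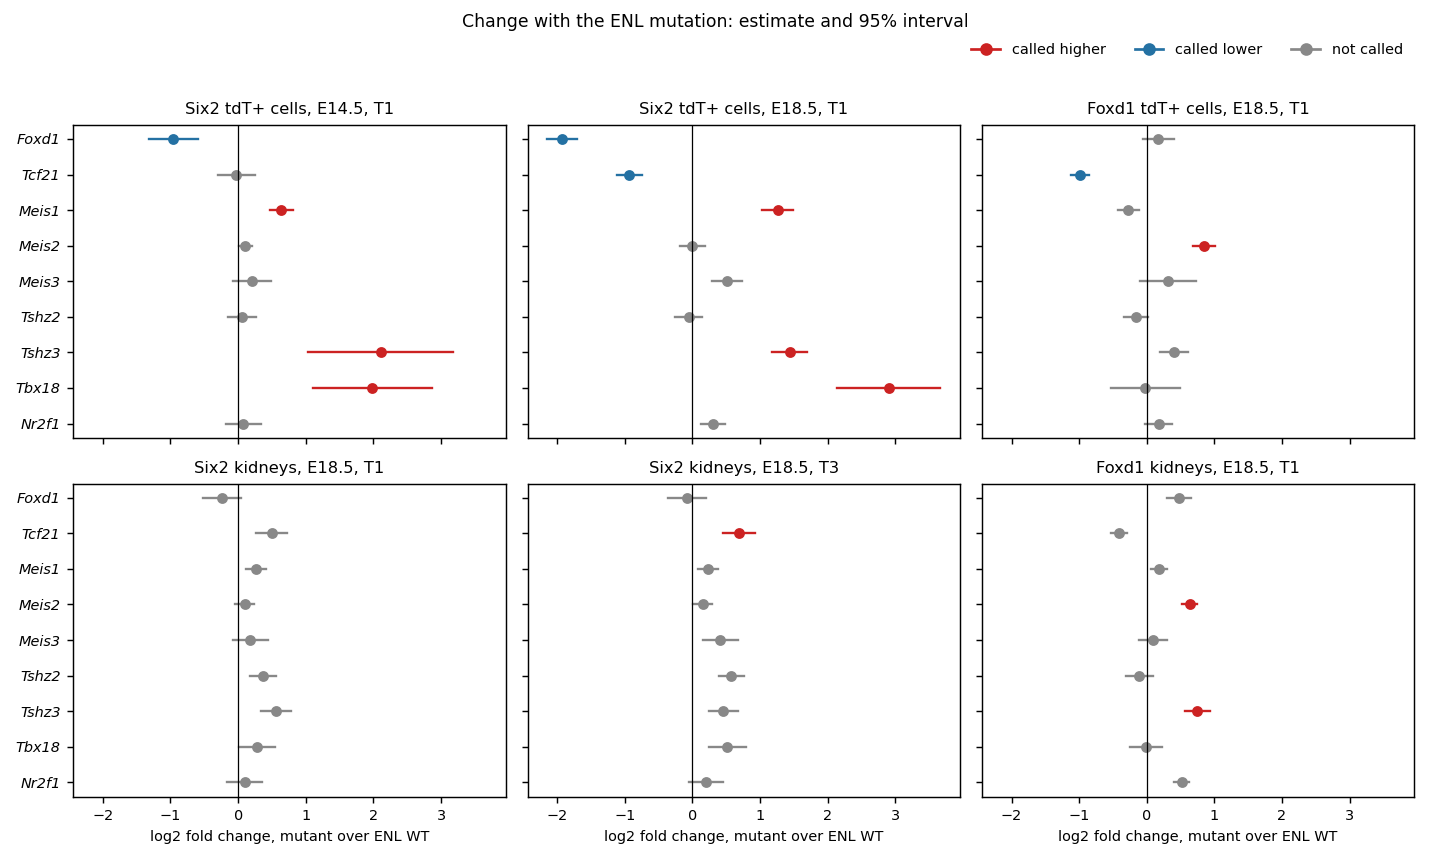
Log2 fold change of each of the 9 genes, with its 95% interval, in the 6 comparisons of an ENL mutant with ENL WT. Red marks genes called higher, blue those called lower (adjusted p under 0.05 and over 1.5-fold) and grey the others. Foxd1 lies at -1.93 in sorted Six2 cells at E18.5 and at 0.17 in sorted Foxd1 cells, and Tbx18 at 2.90 and -0.02.

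Foxd1, the factor that defines the cortical stroma, fell in the nephron lineage with ENL T1. At E14.5 it was at 135, 158 and 139 CPM in the ENL WT libraries of sorted Six2 cells and at 95.4, 66.7 and 59.9 CPM in the ENL T1 libraries, a log2 change of -0.96 (SE 0.16, adjusted p = 0.00571). At E18.5 the ENL WT libraries held 40.5, 40.1 and 33.0 CPM and the ENL T1 libraries 9.15, 9.54 and 10.4 CPM, a log2 change of -1.93 (SE 0.10, adjusted p = 2.87e-08). The groups did not overlap at either stage, and the fall was larger at E18.5 (difference of the log2 changes -0.95, SE 0.20, adjusted p = 0.00902). Of the 9 genes 3 differed between stages in this way, 1 towards higher and 2 towards lower values, against 3.94% and 4.22% of 25222 genes. Sorted Foxd1 cells differed: Foxd1 was at 57.9, 71.5, 64.5 and 76.4 CPM with ENL WT and at 63.5, 74.5, 71.0 and 89.5 CPM with ENL T1, which overlapped (log2 difference 0.17, 95% interval -0.06 to 0.40, adjusted p = 0.375). The T1 effect differed between the lineages by 2.08 on the log2 scale (SE 0.15, adjusted p = 4.05e-09). Of the 9 genes 2 had a higher T1 effect in the Foxd1 lineage and 3 a lower one, against 8.25% and 7.63% of 14869 genes tested.

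In whole kidneys the same gene showed smaller differences. In Foxd1 kidneys it was at 31.05, 34.4 and 30.9 CPM with ENL WT and at 50.7, 39.9 and 43.5 CPM with ENL T1, without overlap, a log2 difference of 0.47 (SE 0.08, adjusted p = 0.000779) that is under 1.5-fold. In Six2 kidneys it was at 13.5 and 15.5 CPM with ENL WT, 12.2 and 12.5 CPM with T1 and 12.2 and 15.2 CPM with T3, and neither mutant passed the test (adjusted p = 0.262 and 0.695). The T1 effect was higher in Foxd1 than in Six2 whole kidneys by 0.70 (SE 0.16, adjusted p = 0.015), which no longer passed without Six2 library T1 1 (adjusted p = 0.0656), T1 2 (0.0526) or WT 2 (0.0642). Of the 9 genes 2 had a higher and 2 a lower T1 effect in Foxd1 kidneys, against 4.74% and 3.65% of 23854 genes. Beside the fall of Foxd1 in sorted Six2 cells, nephron progenitor markers fell in 5 of 8 genes at each stage, and 1 rose at E18.5. Six2 was at 805 to 926 CPM with ENL WT and 392 to 537 CPM with T1 at E14.5 and at 200.03 to 263 against 77.9 to 98.2 CPM at E18.5. Of 7 podocyte markers tested at E14.5, 2 fell and 1 rose, and the summed level of the list was 175 to 208 CPM with ENL WT and 128 to 133 CPM with T1. At E18.5 podocyte markers fell in 7 of 8 genes, and their summed level was 3334 to 3831 CPM with ENL WT and 439 to 511 CPM with T1. Tubule markers fell there in 8 of 8 genes at E18.5, from a summed 1519 to 1997 CPM with ENL WT to 486 to 579 CPM with T1. In Foxd1 whole kidneys 4 of the 8 nephron progenitor markers rose and 6 of the 8 tubule markers fell, the latter from a summed 3066 to 3168 CPM to 1379 to 1858 CPM. The part of these other cells in the values of Foxd1 and, in Foxd1 whole kidneys, of Tcf21, Meis2, Tshz3 and Nr2f1 was not tested.

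**Figure D3:**
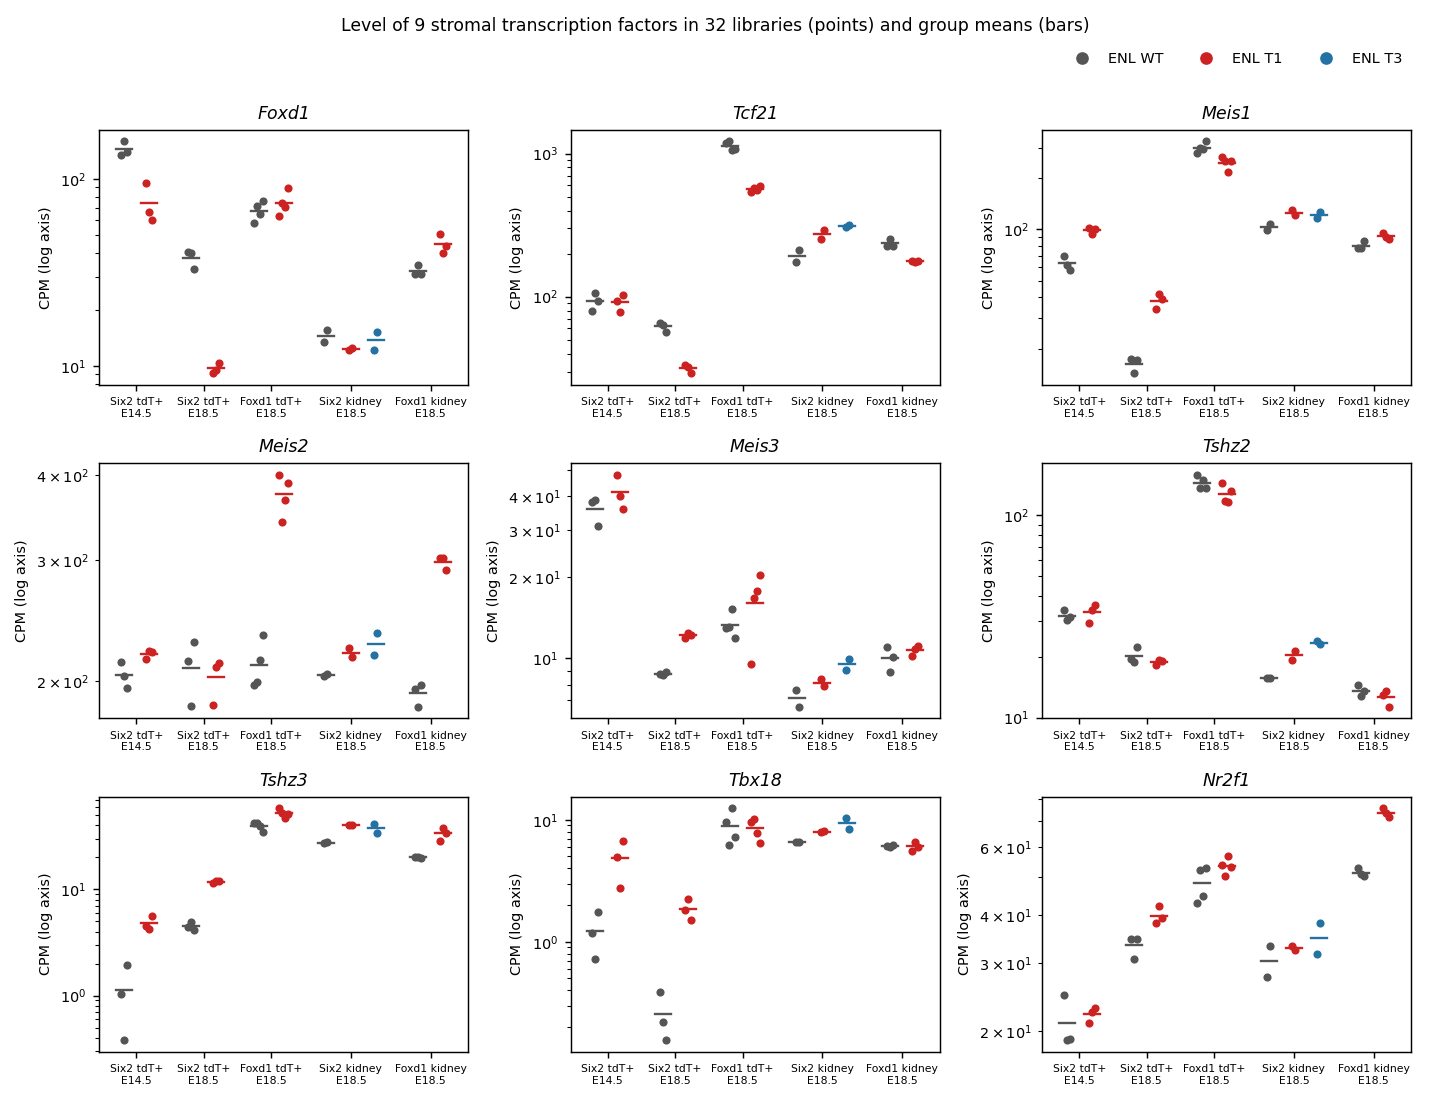
Level of each of the 9 genes in every library, as CPM on a log axis, by group, with ENL WT in grey, T1 in red and T3 in blue and a bar at each group mean; levels are scaled within each of the 4 tables. Tcf21 in sorted Foxd1 cells is at 1057 to 1217 CPM with ENL WT and at 536 to 597 CPM with T1.

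Tcf21, the most abundant member, was lower with ENL T1 in both sorted lineages at E18.5. Sorted Foxd1 cells held it at 1186, 1217, 1057 and 1078 CPM with ENL WT and at 536, 572, 554 and 597 CPM with ENL T1, a log2 change of -0.99 (SE 0.06, adjusted p = 1.35e-08). The nephron lineage at E18.5 had it at 65.9, 63.9 and 56.4 CPM with ENL WT and at 33.3, 32.1 and 29.3 CPM with T1, a log2 change of -0.93 (SE 0.08, adjusted p = 3.12e-06). The groups were far apart in each lineage, and the effects differed by -0.07 (95% interval -0.28 to 0.14, adjusted p = 0.708). At E14.5 the values overlapped, at 79.6, 106 and 93.7 CPM with ENL WT and 92.8, 78.3 and 103 CPM with T1 (log2 difference -0.03, 95% interval -0.30 to 0.25), and the effect differed between stages by -0.90 (SE 0.16, adjusted p = 0.003). The fall in Six2 cells at E18.5 stood beside the lower podocyte markers given above. In sorted Foxd1 cells 0 of 8 podocyte markers were called, with 2 log2 differences above 0 and 6 below. Their sum was 563 to 955 CPM with ENL WT and 586 to 740.1 CPM with T1, which overlap. The part of podocytes in the level of Tcf21 was not tested in either lineage.

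In whole kidneys Tcf21 moved in opposite directions under the 2 Cre lines. Six2 kidneys held 176 and 211 CPM with ENL WT, 255 and 293 CPM with T1 and 307 and 317 CPM with T3. Both mutants lay above the controls, and T3 was called (log2 change 0.69, SE 0.10, adjusted p = 0.00302) while T1 stayed under 1.5-fold (0.50, SE 0.10, adjusted p = 0.0154). Without ENL WT library 1 the T3 difference was 0.58, under 1.5-fold, and without ENL WT library 2 or T1 library 1 the T1 difference was 0.64 and 0.61, over 1.5-fold. Foxd1 kidneys held 228, 254 and 225 CPM with ENL WT and 179, 176 and 178 CPM with T1, without overlap (log2 difference -0.41, SE 0.06, adjusted p = 9.58e-05, under 1.5-fold). The difference between the T1 effects was -0.92 (SE 0.13, adjusted p = 0.000381). In the Six2 whole kidneys podocyte markers fell in 7 of 8 genes with each mutant and tubule markers in 8 of 8, and macrophage markers rose in 5 of 6, and the part of these cells in the level of Tcf21 was not tested.

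The 3 Meis genes each had a pattern of their own. Meis1 rose in the nephron lineage, from 70.1, 61.8 and 57.9 CPM with ENL WT to 102, 93.1 and 101 CPM with T1 at E14.5 (log2 change 0.64, SE 0.08, adjusted p = 0.00125). At E18.5 it rose from 17.5, 14.4 and 17.1 CPM to 33.9, 41.5 and 38.8 CPM (log2 change 1.26, SE 0.11, adjusted p = 1.73e-06). The mutant libraries lay above every control library at both stages, and the rise was larger at E18.5 by 0.64 (SE 0.13, adjusted p = 0.00995). Without ENL WT library 3 the E14.5 change was 0.58, under 1.5-fold, and without T1 library 2 of E18.5 the difference between stages had an adjusted p of 0.052. For sorted Foxd1 cells, where Meis1 was at 280.4, 300.2, 294 and 326 CPM with ENL WT and at 266, 249, 215 and 250.1 CPM with T1, the difference was downward and under 1.5-fold (log2 difference -0.27, SE 0.08, adjusted p = 0.0271). The T1 effects in the 2 lineages differed by -1.56 (SE 0.13, adjusted p = 2.58e-08). Whole kidneys showed log2 differences of 0.27 (Six2 T1), 0.24 (Six2 T3) and 0.18 (Foxd1 T1), each with an adjusted p under 0.05 and under 1.5-fold.

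Meis2 showed the reverse: it rose in the stromal lineage and was not called in the nephron lineage. Sorted Foxd1 cells held 198, 199.5, 214 and 233 CPM with ENL WT and 399.9, 341, 368 and 389 CPM with T1, without overlap (log2 change 0.85, SE 0.08, adjusted p = 4.85e-07). Foxd1 whole kidneys held 195, 183 and 197 CPM with ENL WT and 302, 302 and 291 CPM with T1 (log2 change 0.63, SE 0.05, adjusted p = 1.19e-06). The 12 sorted Six2 libraries held between 184 and 228 CPM, with log2 differences of 0.10 (95% interval 0.01 to 0.20) at E14.5 and 0.00 (-0.19 to 0.18) at E18.5. The T1 effect differed between the sorted lineages by 0.83 (SE 0.12, adjusted p = 4.69e-05) and between the whole kidneys of the 2 Cre lines by 0.52 (SE 0.08, adjusted p = 0.00133). In Six2 whole kidneys it was at 204 and 205 CPM with ENL WT, 223 and 217 CPM with T1 and 218 and 235 CPM with T3, and was not called. Meis3 was not called in any of the 6 comparisons. In sorted Six2 cells at E18.5 it was at 8.77, 8.67 and 8.92 CPM with ENL WT and at 11.9, 12.5 and 12.3 CPM with T1, which did not overlap but lay under 1.5-fold (log2 difference 0.52, SE 0.10, adjusted p = 0.00265). With library-size scaling this Meis3 difference was 0.61, over 1.5-fold. At E14.5 its groups overlapped (31.0 to 38.9 against 35.9 to 48.0 CPM), and in the other 3 tables it was between 6.64 and 20.4 CPM. Among these, Six2 whole kidneys had it at 7.67 and 6.64 CPM with ENL WT and at 9.09 and 9.92 CPM with T3, without overlap and under 1.5-fold (log2 difference 0.41, SE 0.11, adjusted p = 0.0419).

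Tshz3 and Tbx18, the 2 members with the lowest levels in nephron-lineage cells, rose there with ENL T1. Tshz3 was at 1.04, 0.383 and 1.93 CPM with ENL WT and at 4.55, 4.26 and 5.61 CPM with T1 at E14.5 (log2 change 2.11, SE 0.47, adjusted p = 0.0209), and at 4.39, 4.91 and 4.14 CPM against 11.5, 12.05 and 11.9 CPM at E18.5 (log2 change 1.44, SE 0.12, adjusted p = 1.52e-06). The groups did not overlap at either stage, but the E14.5 call was lost without T1 library 1 (adjusted p = 0.0588), T1 library 3 (0.07) or ENL WT library 1 (0.0659). Tbx18 was at 1.18, 0.723 and 1.75 CPM with ENL WT and at 5.00, 2.75 and 6.70 CPM with T1 at E14.5 (log2 change 1.99, SE 0.39, adjusted p = 0.0121), and at 0.386, 0.218 and 0.157 CPM against 1.83, 2.24 and 1.51 CPM at E18.5 (log2 change 2.90, SE 0.35, adjusted p = 4.86e-05). Its mutant libraries lay above all control libraries at both stages. The differences between stages did not pass the test for Tshz3 (-0.66, 95% interval -1.72 to 0.41, adjusted p = 0.5) or Tbx18 (0.93, 95% interval -0.27 to 2.13, adjusted p = 0.371). Without ENL WT library 3 of E14.5 that of Tshz3 was -1.31 (adjusted p = 0.0437).

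For comparison, sorted stroma with ENL WT held Tshz3 at 34.9 to 42.6 CPM, above every sorted Six2 library, and Tbx18 at 6.25 to 12.4 CPM, a range that the highest E14.5 T1 library (6.70 CPM) reached. In sorted Foxd1 cells Tshz3 was at 41.8, 42.6, 39.3 and 34.9 CPM with ENL WT and at 58.0, 52.5, 46.7 and 50.7 CPM with T1, without overlap and under 1.5-fold (log2 difference 0.41, SE 0.10, adjusted p = 0.0119). Tbx18 was at 9.61, 6.25, 12.4 and 7.21 CPM with ENL WT and at 9.55, 10.2, 7.85 and 6.46 CPM with T1, with full overlap (log2 difference -0.02, 95% interval -0.53 to 0.49). The T1 effects were lower in the Foxd1 than in the Six2 lineage by -1.05 for Tshz3 (SE 0.14, adjusted p = 2.1e-05) and -2.94 for Tbx18 (SE 0.43, adjusted p = 4.04e-05). In Foxd1 whole kidneys Tshz3 rose from 20.1, 20.3 and 19.7 CPM to 28.8, 38.2 and 34.3 CPM (log2 change 0.75, SE 0.09, adjusted p = 2.42e-05), and Tbx18 overlapped at 5.58 to 6.58 CPM over both genotypes. In Six2 whole kidneys Tshz3 was at 27.0 and 27.9 CPM with ENL WT, 40.7 and 40.6 CPM with T1 and 41.3 and 34.2 CPM with T3, above the controls but under 1.5-fold (log2 differences 0.56 and 0.46, adjusted p = 0.00715 and 0.0144). The T1 difference passed 1.5-fold with library-size scaling (0.63) and without ENL WT library 2 (0.59), and the T3 difference without T3 library 2 (0.60). Tbx18 in the same kidneys was at 6.52 and 6.53 CPM with ENL WT, 7.92 and 8.04 CPM with T1 and 10.2 and 8.39 CPM with T3. Both mutants lay above the controls, with log2 differences of 0.28 (adjusted p = 0.174) and 0.51 (adjusted p = 0.021), and the T3 difference passed 1.5-fold with library-size scaling (0.59) and without T3 library 2 (0.66).

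Markers of other cells moved with these rises in the sorted Six2 libraries. Of the 20 stroma markers 14 rose and 1 fell at E14.5, and 12 rose and 3 fell at E18.5. Col1a1 was at 84.7, 77.7 and 147 CPM with ENL WT and at 739, 328 and 645 CPM with T1 at E14.5, and at 159, 189 and 95.7 CPM against 338, 418 and 391 CPM at E18.5. The T1 library with the lowest Tbx18 at E14.5 (2.75 CPM) was also the one with the lowest Col1a1 (328 CPM) and Dcn (30.3 CPM). At E18.5 the lowest Tbx18 (1.51 CPM, T1 library 3) and the lowest Col1a1 (338 CPM, T1 library 1) were in different libraries. The summed level of the list was 2164 to 2261 CPM with ENL WT and 2430 to 3918 CPM with T1 at E14.5, but 2758 to 3057 CPM against 2183 to 2492 CPM at E18.5, so at E18.5 the sum was lower although the median log2 change was 0.84. At E18.5 the summed red cell markers were at 104 to 214 CPM with ENL WT and 1529 to 2219 CPM with T1 (5 of 6 rose), and the macrophage markers at 35.3 to 38.7 against 82.4 to 92.4 CPM (4 of 6 rose). Tcf21 and Tshz2, which were higher in sorted stroma by 4.41 and 3.06 on the log2 scale, did not rise in either sorted Six2 comparison. However, Tcf21 is also a podocyte factor, podocyte markers fell at E18.5, and the lineage difference of Tshz2 is uncertain because of its exon overlap. The part of stromal, blood or macrophage RNA in the rises of Tshz3, Tbx18 and Meis1 was not tested.

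**Figure D4:**
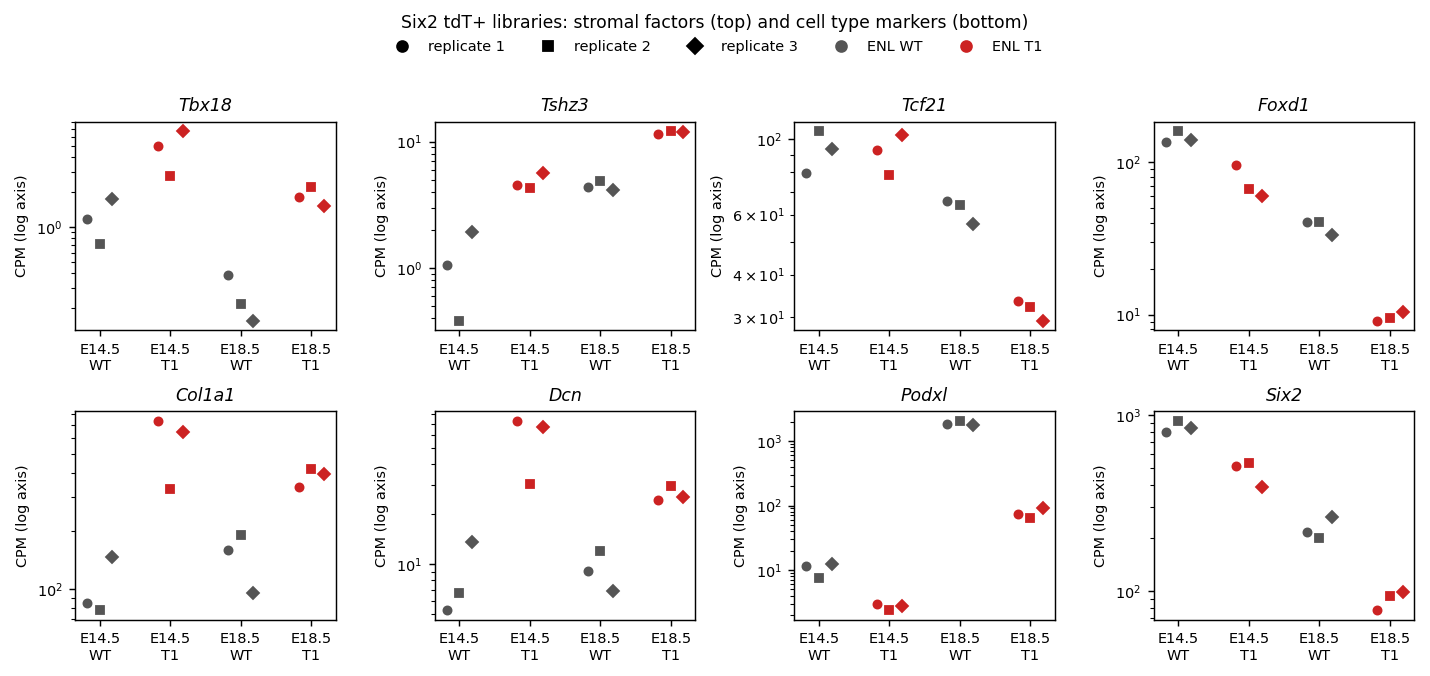
The 12 sorted Six2 libraries, with Tbx18, Tshz3, Tcf21 and Foxd1 in the upper panels and Col1a1 and Dcn (stroma), Podxl (podocyte) and Six2 (nephron progenitor) in the lower ones, as CPM on log axes. Marker shapes give the replicate number. Podxl at E18.5 is at 1757 to 2056 CPM with ENL WT and at 64.4 to 92.0 CPM with T1.

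Tshz2, a close relative of Tshz3, did not follow it. In sorted Six2 cells it was at 30.2 to 34.1 CPM with ENL WT and 29.3 to 36.1 CPM with T1 at E14.5, and at 18.9 to 22.3 against 18.3 to 19.2 CPM at E18.5, overlapping at both stages (log2 differences 0.06, 95% interval -0.15 to 0.26, and -0.06, 95% interval -0.26 to 0.15). The stromal lineage had it at 159, 136, 149 and 136 CPM with ENL WT and at 145, 119, 117 and 132 CPM with T1, with overlap (adjusted p = 0.262). In Six2 whole kidneys it was at 15.7 and 15.8 CPM with ENL WT, 19.4 and 21.4 CPM with T1 and 23.9 and 23.1 CPM with T3. These groups did not overlap, with log2 differences of 0.36 (adjusted p = 0.0235) and 0.58 (adjusted p = 0.00276), and the T3 difference lay close to the 1.5-fold limit and passed it in 7 of the alternatives tried. In Foxd1 whole kidneys the groups overlapped at 11.3 to 14.4 CPM, and the T1 effect differed from that in Six2 kidneys by -0.49 (SE 0.13, adjusted p = 0.0311). That difference was lost without any 1 of 6 of the 12 libraries: Foxd1 T1 3, WT 1 or WT 3, or Six2 T1 2, WT 1 or WT 2, with adjusted p from 0.051 to 0.174.

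Nr2f1, within 2-fold between the lineages, was not called in any of the 6 comparisons with ENL WT. Its largest difference was in Foxd1 whole kidneys, at 53.0, 51.1 and 50.3 CPM with ENL WT and 75.6, 73.7 and 71.8 CPM with T1. The groups were well separated and the difference, 0.51 on the log2 scale (SE 0.05, adjusted p = 8.78e-06), lay under 1.5-fold. Among sorted Foxd1 libraries it was at 43.0, 52.1, 44.9 and 53.0 CPM against 54.0, 50.6, 56.7 and 53.3 CPM, with overlap (adjusted p = 0.295). In sorted Six2 cells at E18.5 it was at 34.6, 30.7 and 34.6 CPM against 38.1, 42.0 and 39.3 CPM (log2 difference 0.30, SE 0.08, adjusted p = 0.0212). The whole-kidney effects of the 2 Cre lines differed by 0.40 (SE 0.12, adjusted p = 0.06), which passed with median-ratio size factors (adjusted p = 0.0394), with DESeq2 (0.0137), without a low-count filter (0.00075) and in 9 of the 12 fits that left out 1 library (adjusted p from 0.0045 to 0.256 over the 12).

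Whether the 2 ENL mutations act differently on these genes was tested directly in Six2 whole kidneys. None of the 9 was called between T3 and T1, where edgeR's quasi-likelihood test called 1 gene of 23931 higher (0.00418%) and 0 lower (0%). At an unadjusted p under 0.05 it had 1172 genes higher and 548 lower, and other settings called more, with 58 higher and 17 lower by DESeq2, 173 and 46 by edgeR's exact test and 207 and 93 without a low-count filter, none of them a member. The intervals of the log2 difference, T3 minus T1, were 0.02 to 0.40 for Tshz2, -0.04 to 0.43 for Tcf21, -0.04 to 0.50 for Tbx18, -0.03 to 0.49 for Meis3, -0.12 to 0.44 for Foxd1, -0.32 to 0.12 for Tshz3, -0.16 to 0.36 for Nr2f1, -0.09 to 0.19 for Meis2 and -0.18 to 0.11 for Meis1. Adjusted p-values were 0.655 to 0.93. With 2 libraries per genotype, differences within these intervals could not be resolved.

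Other genes of the same families and tissue were read from lists. Of 18 TALE partners and paralogs of the 9 genes, among them the Tgif genes, few were called: 1 rose and 0 fell of 16 tested in sorted Six2 cells at E14.5, and 1 rose and 1 fell of 16 at E18.5. The gene that rose at both stages was Msc (musculin), a bHLH relative of Tcf21, by 1.83 (SE 0.16, adjusted p = 0.00034) at E14.5 and 2.18 (SE 0.34, adjusted p = 0.000386) at E18.5, whereas Tcf21 itself did not rise. Pknox2, a TALE gene, fell by 0.75 on the log2 scale (adjusted p = 0.000137) at E18.5. In whole kidneys 1 of 16 rose with Six2 T1, 2 with Six2 T3 and 1 with Foxd1 T1, and 0 fell: Tcf23, another Tcf21 relative, by 0.96 and 0.87 in the Six2 kidneys, and Msc by 1.27 with T3 and 0.70 in Foxd1 kidneys.

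Of 24 other mesenchymal transcription factors, 8 rose and 3 fell in sorted Six2 cells at E14.5 and 7 rose and 1 fell at E18.5, with medians of 0.33 and 0.44. Those that rose most were Alx1 (2.63, adjusted p = 0.00468), Snai2 (1.77, adjusted p = 0.000112) and Tbx3 (1.75, adjusted p = 0.00541) at E14.5 and, at E18.5, Tbx3 (1.98, adjusted p = 2.86e-05) and Alx1 (1.71, adjusted p = 0.000196). Foxf2, also called at E18.5, was at 0.0177 CPM on average in the ENL WT libraries, under the level of 3 counts, and no fold is given. The genes that fell were Osr1 (-1.17), Osr2 (-0.97) and Foxc1 (-0.95) at E14.5 and Osr1 (-1.76) at E18.5. Of 22 tested in sorted Foxd1 cells 3 rose, Osr2 (1.73, adjusted p = 2.72e-06), Sox9 (1.16, adjusted p = 6.91e-07) and Osr1 (0.84, adjusted p = 0.00256), and 4 fell, among them Snai2 (-0.87, adjusted p = 2.53e-07), Mef2c (-0.63, adjusted p = 0.000399) and Alx1 (-0.62, adjusted p = 0.000276). Foxd1 whole kidneys had 3 of 23 higher, with Osr1 at 0.78 and Sox9 at 0.61, and 0 lower. Six2 whole kidneys had 1 of 23 higher and 4 lower with T1 and 4 and 4 with T3, with Snai2 higher (0.71 and 0.86) and Osr1, Foxf1 and Ebf2 lower in both.

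Stroma and perivascular markers gave the setting of the 9 factors in each comparison. In sorted Six2 cells at E14.5 the stroma markers that rose most were the matrix genes Dcn (2.73, adjusted p = 0.00417), Lum (2.69, adjusted p = 0.00959) and Col1a1 (2.47, adjusted p = 0.00238), and the one that fell was Tnc (-1.08). At E18.5 Fibin (2.37), Lum (2.03) and Penk (1.55) rose most, and Cdkn1c (-1.75), Tnc (-1.34) and the retinoic acid synthesis enzyme gene Aldh1a2 (-0.94) fell. Of the 20, sorted Foxd1 cells had 2 that rose, Lum (1.14) and Vcam1 (0.65), and 4 fell, with Ntn1 (-1.73), Fibin (-1.66) and Agtr2 (-1.15) changed most. Foxd1 whole kidneys had 3 up, Vcam1 (1.11), Lum (0.92) and Smoc2 (0.63), and 3 down, Agtr2 (-0.88), Ntn1 (-0.87) and Fibin (-0.59). In Six2 whole kidneys 2 rose and 2 fell with T1 and 5 rose and 2 fell with T3. Of 12 pericyte, mesangial and smooth muscle markers, 4 rose and 1 fell in sorted Six2 cells at E14.5 and 5 rose and 2 fell at E18.5, whereas 0 rose in the 4 comparisons of the other tables and 2 to 4 fell, with the renin gene Ren1 at -3.83 in sorted Foxd1 cells, -4.27 in Foxd1 whole kidneys and -1.24 and -1.19 in Six2 whole kidneys. Macrophage markers rose in 5 of 6 genes in sorted Foxd1 cells beside these changes, with a summed level of 69.9 to 172 CPM with ENL WT and 169 to 234 CPM with T1. Tubule markers fell there in 5 of 6 tested, with a sum of 110 to 293 CPM against 52.8 to 99.9 CPM. The part of either in the values of Tcf21 and Meis2 was not tested.

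Patterns across the 11 groups were compared by Pearson's r of the group means of log2 CPM, over 19119 genes. The points share tables, depth and kits, so the values are descriptions. The gene most like Tshz3 was the collagen gene Col6a3 (r = 0.993), with Mill2 (0.986) and Col5a1 (0.984) next. The gene most like Tcf21 was Ptn (0.984), which encodes the growth factor pleiotrophin, then Serpine2 (0.972) and Mgst3 (0.970). For Meis1 it was Plin2 (0.987), for Meis3 Bambi (0.987), for Tshz2 Snrpb2 (0.991), for Tbx18 Tnfrsf13b (0.983), for Foxd1 Ckb (0.958), for Nr2f1 Gm15387 (0.947) and for Meis2 Nap1l5 (0.930). Among the members themselves the most alike were Meis1 and Tbx18 (0.882), Tcf21 and Meis1 (0.867), Tshz3 and Tbx18 (0.752) and Foxd1 and Meis3 (0.717), while Meis3 and Tshz3 ran most in opposite directions (-0.688).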

How the data were processed

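RNA from whole embryonic kidneys (KAPA stranded mRNA kit) and from sorted tdT+ cells (SMART-Seq v4) was sequenced on a NovaSeq in paired-end mode. By the study's methods, reads were longer for the Foxd1 than for the Six2 libraries. Per the study's methods and the submitters' processing notes, the authors aligned reads to mm10 with HISAT2, keeping 1 alignment per read, and counted them per Ensembl gene with HTSeq without strand and without a minimum mapping quality. The deposited values are raw counts of reads per gene in 4 tables covering 32 libraries, and the annotation release behind them is not given in the sources used here. Of 55806 IDs, 55536 were named from GENCODE vM21. Counted without strand, reads of overlapping exons cannot be assigned with certainty.

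From these counts, CPM with TMM factors, and FPKM per union exon length, were computed within each table. Each comparison was fitted over all genes kept by filterByExpr (count minimum 10, total minimum 15) with edgeR's quasi-likelihood test, and p-values were Benjamini-Hochberg adjusted over all genes tested. Genotype comparisons were called at 0.05 with a fold change over 1.5, the stage and lineage comparisons of ENL WT at 0.01 with a fold change over 2, and interaction terms at 0.05. The Six2 whole-kidney genotypes were fitted together (6 libraries), the stage terms over 12 sorted Six2 libraries, the lineage terms over 14 sorted E18.5 libraries and the Cre-line term over 12 whole-kidney libraries. The other comparisons used their own libraries. No replicates had counts within sampling noise of each other. Groups came from the labels.

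The 9 members and all lists were chosen with earlier results of these data known. Named list genes were up to 3 per direction, list and comparison, by size of change, among those called and separated by genotype. Named genes of likeness were the 3 with the highest r per member. The alternatives were other size factors, other filters, DESeq2, edgeR's exact test, a replicate block, other fold thresholds, other sets of fitted libraries and each library left out. The list of TALE partners and paralogs is not reported here for sorted Foxd1 cells. Scripts were tested on simulated data. The versions used were R 4.3.3, edgeR 4.0.16, limma 3.58.1, DESeq2 1.42.0 and matplotlib 3.10.9. All adjusted p-values in the text are from edgeR unless DESeq2 is named.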

Additional observations from a re-analysis of the deposited data

Results flagged for a closer look

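The results below were picked out because the effect of ENL T1 on a member differed between stages, lineages or Cre lines by an interaction test at an adjusted p under 0.05 (edgeR). Between E18.5 and E14.5 in sorted Six2 cells the log2 effect differed by -0.95 for Foxd1, -0.90 for Tcf21 and 0.64 for Meis1. Between sorted Foxd1 and sorted Six2 cells at E18.5 it differed by 2.08 for Foxd1, -1.56 for Meis1, 0.83 for Meis2, -1.05 for Tshz3 and -2.94 for Tbx18. Between Foxd1 and Six2 whole kidneys it differed by 0.70 for Foxd1, -0.92 for Tcf21, 0.52 for Meis2 and -0.49 for Tshz2. The lineage and whole-kidney terms compare different read lengths and Cre lines, and the stage terms different dissociations, which cannot be told apart from lineage and stage. Among the 18 member groups of 4 libraries tested for a library far from the others, 0 met the limit, where chance alone gives about 1 in 20.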

How the results depend on the processing

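Counts of called members moved with the fold threshold. With no fold threshold, 4 members passed in Six2 whole kidneys with T1 (against 0), 6 with T3 (against 1), 4 in sorted Foxd1 cells (against 2), 6 in Foxd1 whole kidneys (against 2) and 8 between the stages (against 5). With a fold change over 2, 0 were left with Six2 whole T3, 2 in sorted Six2 cells at E14.5 (against 4), 0 in sorted Foxd1 cells and 0 in Foxd1 whole kidneys. Scaling by library size only gave 1 with Six2 whole T1 and 3 with T3, and median-ratio factors, a filter at 1 CPM and DESeq2 gave 2 each with T3. Leaving out each library in turn gave 0 to 2 members with Six2 whole T1 (2 without ENL WT 2), 1 to 4 with T3 (4 without T3 2), 3 to 4 in sorted Six2 cells at E14.5 and 2 to 5 for the whole-kidney interaction, with 2 reached without Six2 T1 2 or ENL WT 2. The other alternatives kept each count within 1.5 times, and the causes of the moves with scaling, filter, tool or library were not tested. A lone library left in a group was assumed to vary like the other groups.

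Signs turned only for differences that were not called, most of them near 0. With library size only these were Tcf21 at E14.5 (0.014), Meis2 and Tshz2 in sorted Six2 cells at E18.5 (0.091 and 0.037), Tbx18 in Foxd1 whole kidneys (0.0012) and Meis2 between stages (-0.12). Without a low-count filter it was Meis2 between lineages (-0.10, against 0.23 with an adjusted p of 0.0183 as given above). Leaving out 1 library gave ranges across 0 for Nr2f1 (-0.013 to 0.25) with Six2 whole T1 and Foxd1 (-0.25 to 0.073) with T3. Between T3 and T1 the ranges were -0.014 to 0.31 for Foxd1, -0.086 to 0.011 for Meis1, -0.0034 to 0.099 for Meis2, -0.25 to 0.030 for Tshz3 and -0.039 to 0.22 for Nr2f1. They were -0.13 to 0.075 for Tcf21 and -0.0087 to 0.14 for Tshz2 at E14.5, -0.088 to 0.069 for Meis2 and -0.11 to 0.020 for Tshz2 at E18.5, -0.17 to 0.16 for Tbx18 in sorted Foxd1 cells and -0.068 to 0.043 in Foxd1 whole kidneys, -0.021 to 0.14 for Meis2 between stages, and -0.18 to 0.0034 for Meis1 and -0.19 to 0.029 for Meis3 in the whole-kidney interaction.

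The median log2 difference of all genes moved by over 0.1 for the stages (0.02, against -0.12 with library size only and 0.15 with median-ratio factors or DESeq2) and for the lineages without a filter (-0.10 against -0.61). Calls towards higher values were 48.3% of all calls for the stage interaction, against 59.0% with library size only, 37.3% with no filter, 39.2% with median-ratio factors and 41.5% with DESeq2. They were 51.9% and, with library size only, 37.6% for the lineage interaction, and 49.2% and, with no filter, 38.9% for the lineages. Same-numbered libraries had deviations correlated at -0.0791 to 0.139, and 3 of 6, 2 of 6, 3 of 8 and 0 of 6 libraries correlated best with their own number in sorted Six2 E14.5, sorted Six2 E18.5, sorted Foxd1 and Foxd1 whole libraries, so numbers were not taken as pairs. A replicate block took 2 calls, Foxd1 between lineages (0.97, under 2-fold) and Tshz2 in the whole-kidney interaction (-0.49, adjusted p = 0.0589). The sorted Foxd1 libraries, at 2557443 to 3508381 counts, were the shallowest.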
